A study of Mus musculus with 8 samples.

Results

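Tuft cells are rare chemosensory cells of the intestinal epithelium. Like taste cells, they carry G protein-coupled receptors whose signal runs through the G protein gustducin, a phospholipase and the cation channel TRPM5, and they release the cytokine IL-25, which activates innate lymphoid cells of the gut wall. Luminal succinate, a product of microbes and protists, is a known stimulus of tuft cells in the mouse small intestine. The results below concern 10 genes of this cell type out of 19505 named genes on the array. They are the taste signalling genes Gnat3, Trpm5 and Tas1r3, the succinate receptor gene Sucnr1, the lineage regulators Pou2f3 and Gfi1b, the cytokine gene Il25, and the marker genes Dclk1, Avil and Sh2d6. The genes were chosen by name, and each was matched by its symbol to 1 probe set.

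Ileum was taken from 8 male KKAy mice, an inbred line with the yellow agouti allele that grows obese and diabetic. The mice were given as 14 weeks old when housed. All were on feed in which fat supplied 45% of the energy, and after 4 weeks on it they were gavaged every day for another 8 weeks. In 4 mice the gavage was water, and in the other 4 it was voglibose at 1 mg/kg, an inhibitor of the alpha-glucosidases that release sugars from starch and sucrose at the brush border. No lean strain, standard diet or untreated group was analysed here, so the obesity allele and the diet are shared by both groups. Each array held RNA from a piece of gut wall of about 4 cm from 1 mouse, and the comparison asks which of these transcripts differ after the drug.

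The pieces contained epithelium in all 8 mice, with log2 signals of the epithelial adhesion gene Epcam from 16.99 to 17.44. They did not all carry an ileal profile. The ileal bile acid-binding protein gene Fabp6 was at 4.01 in water mouse 4 and at 3.54 in voglibose mouse 2, below the lower quartile of the arrays (4.05 to 4.18), and from 8.14 to 17.50 in the other 6 mice. Gip, a hormone gene of the upper small intestine, was highest in those same 2 mice, at 11.74 and 11.71, and at most 10.84 elsewhere. At the other end stood water mouse 2, with the highest Fabp6 signal and the highest mean of the smooth muscle markers (14.30, against 11.03 to 13.42 in the other mice). The mean of 7 distal ileum markers was 11.87 in water mice (9.28 to 14.62) and 10.94 in voglibose mice (9.08 to 12.05). Of these markers, 6 had a lower mean in voglibose mice and 1 a higher one, 0 at an unadjusted p under 0.05 (limma). The regional profile thus differed between the group means as well as between mice. Values without water mouse 4 and voglibose mouse 2 are drawn for all 10 genes in the plot of differences and given in the text for those they moved most. The samples are whole tissue, so fewer tuft cells and less RNA per tuft cell cannot be told apart.

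Across the 22206 probe sets, limma called 0 (0%) at a Benjamini-Hochberg adjusted p under 0.05, and no gene described here passed. At an unadjusted p under 0.05 limma gave 1671 probe sets, 7.52% of all. Among the 10 genes, 2 met that looser threshold, Gnat3 and Trpm5, both lower in voglibose mice, where 4.44% of all probe sets were lower at that threshold. A lower mean in voglibose mice was seen in 7 of the 10 genes and in 50.9% of all probe sets. The median difference was -0.11 over the 10 genes and -0.005 over all probe sets. In 0 of the 10 genes were the groups fully separated, as they were in 4.35% of all probe sets.

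**Figure D1:**
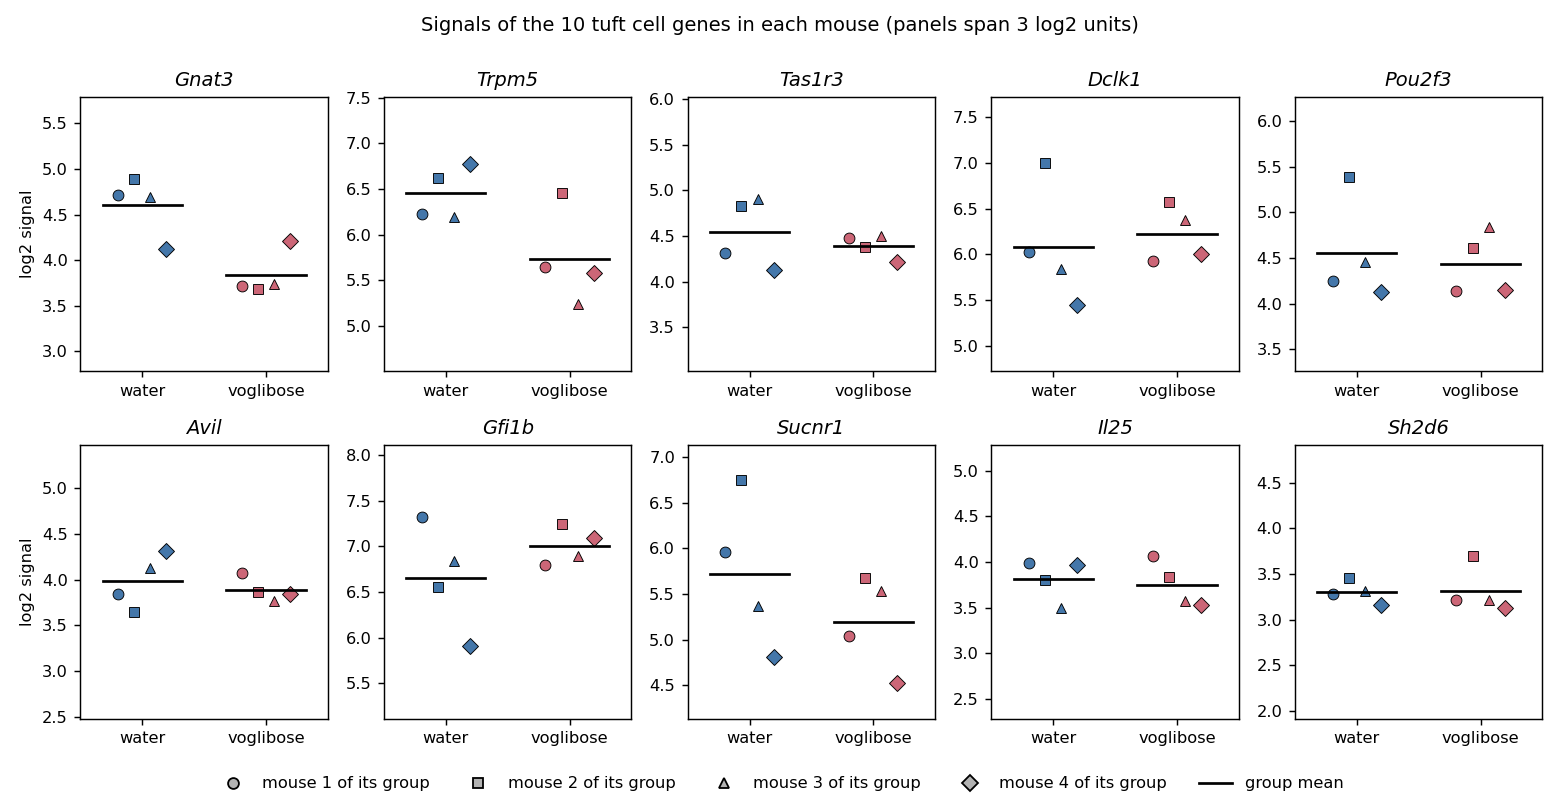
Log2 signal (vertical axis) of the 10 tuft cell genes in the 4 water mice (blue) and the 4 voglibose mice (red), with 1 panel per gene, a symbol for each mouse number and a bar at the group mean. In Gnat3 and Trpm5 a single mouse of 1 group lies among those of the other, and in Dclk1, Pou2f3 and Sucnr1 water mouse 2 is the highest of the 8.

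Gnat3 and Trpm5, 2 of the taste signalling genes, gave the lowest p-values of the set. Gnat3 encodes the alpha subunit of gustducin, the G protein that couples taste receptors to their effector. Its log2 signal was 4.71, 4.89, 4.69 and 4.12 in water mice 1 to 4 and 3.72, 3.68, 3.74 and 4.21 in voglibose mice 1 to 4. Water mouse 4 was below voglibose mouse 4, and the remaining 3 voglibose mice were below every water mouse. The group means were 4.60 ± 0.33 and 3.84 ± 0.25 (SD, n = 4), a difference of -0.77 ± 0.20 (SE) on the log2 scale or 1.70-fold less signal in voglibose mice. The 95% interval ran from -1.19 to -0.34, with an unadjusted p of 0.00236 and an adjusted p of 0.652 (limma). The voglibose mean lay under the lower quartile of the arrays, where background can make up much of a signal, so the size of the fold is uncertain. Gnat3 also dropped out when only probe sets above the median signal were fitted. An exact 2-sided permutation test over the 70 arrangements of the mice, whose smallest p is 0.0286, gave 0.0571.

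Trpm5, the calcium-activated channel that depolarises taste and tuft cells, read 6.23, 6.62, 6.19 and 6.77 in water mice and 5.64, 6.45, 5.24 and 5.58 in voglibose mice. Voglibose mouse 2 stood among the water mice, and the other 3 were below all of them. The means of 6.45 ± 0.29 and 5.73 ± 0.51 (SD, n = 4) differed by -0.73 ± 0.25 (SE, 95% interval -1.27 to -0.18, unadjusted p = 0.0136, adjusted p = 0.652, limma), or 1.65-fold. The exact permutation p was 0.0857. Both genes kept an unadjusted p under 0.05 in limma when any of the 8 mice was left out, with differences from -0.93 to -0.67 for Gnat3 and from -0.97 to -0.56 for Trpm5. With both mice that lacked the Fabp6 signal left out, the differences were -0.87 ± 0.19 and -0.86 ± 0.19 (SE). The groups then no longer overlapped in either gene, which follows from the values above. In Gnat3 the overlap lay between water mouse 4 and voglibose mouse 4, and leaving out either of them ends it. In Trpm5 it had come from voglibose mouse 2. In that fit of 3 against 3, 5.3% of all probe sets were separated with lower signals in voglibose mice.

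Tas1r3, the subunit that sweet and umami receptors share, ranged from 4.13 to 4.91 in water mice and from 4.22 to 4.50 in voglibose mice. The voglibose values all lay within the water range, and the difference was -0.15 ± 0.19 (SE, unadjusted p = 0.45), and -0.28 ± 0.20 without the 2 mice that lacked the Fabp6 signal. For the 2 genes with the lowest p, the sequences around the annotated start are shown to place a motif search. They run from 250 bases before to 50 bases after the start, 5′ to 3′, from RefSeq with coordinates of GRCm38.p6. Capitals would mark the octamer ATGCAAAT, the site of POU-domain factors such as POU2F3, or its first 7 letters on either strand. Neither window holds them, which says only that these letters are not there.
Gnat3 promoter, chr5:17962320-17962619, plus strand: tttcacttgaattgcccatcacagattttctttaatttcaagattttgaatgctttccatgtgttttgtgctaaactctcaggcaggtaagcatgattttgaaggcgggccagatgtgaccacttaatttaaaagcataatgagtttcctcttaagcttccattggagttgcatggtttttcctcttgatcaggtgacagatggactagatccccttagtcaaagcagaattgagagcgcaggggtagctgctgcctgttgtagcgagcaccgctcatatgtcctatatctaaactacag
Trpm5 promoter, chr7:143094593-143094892, minus strand: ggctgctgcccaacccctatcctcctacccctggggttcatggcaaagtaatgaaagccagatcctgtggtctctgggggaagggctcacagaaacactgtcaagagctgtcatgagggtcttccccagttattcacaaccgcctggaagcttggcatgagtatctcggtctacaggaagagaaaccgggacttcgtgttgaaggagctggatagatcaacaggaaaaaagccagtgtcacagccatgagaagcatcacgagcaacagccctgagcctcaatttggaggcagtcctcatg

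Most other genes of the taste cascade had means that differed in the direction opposite to Gnat3 and Trpm5, and by less. Of 9 measured genes among the 11 on that list, 7 had a higher mean in voglibose mice and 2 a lower one, none at an unadjusted p under 0.05, with a median difference of 0.15. Some of them were very dim, such as Calhm1 (higher) and Rgs21 (lower), at percentiles 0.1 and 10.9 of mean signal. Gnb1 and Trpm4, both higher, were bright, at percentiles 99.1 and 87.8. Which cells of the whole tissue gave these signals was not tested. Plcb2, the phospholipase downstream of gustducin, averaged 5.86 ± 0.21 with water and 5.98 ± 0.26 with voglibose (SD, n = 4), a difference of 0.12 ± 0.17 (SE). Gnb3, a beta subunit of the taste G protein, was at 4.95 to 5.12 in water mice and at 5.25 to 5.49 in voglibose mice. Its groups did not overlap, as was so in 4.35% of all probe sets in either direction. The difference was only 0.29 ± 0.13 (SE) and the unadjusted p 0.0535 (limma). Its partner Gng13, the gamma subunit, differed by -0.04 ± 0.22 (SE, 95% interval -0.52 to 0.45). The bitter taste receptors, which also signal through gustducin, had a median difference of 0.11 over 35 probe sets, with 24 higher and 11 lower and 0 at an unadjusted p under 0.05. Their mean signal was 3.66 in water mice and 3.74 in voglibose mice. Both means lay below the lower quartile of the arrays (4.05 to 4.18), where background can make up much of a signal. The smallest p among these receptors was that of Tas2r144, at 0.0612 (limma, difference 0.38 ± 0.18, SE). In 2 of the 35 the groups did not overlap, both higher in voglibose mice.

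**Figure D2:**
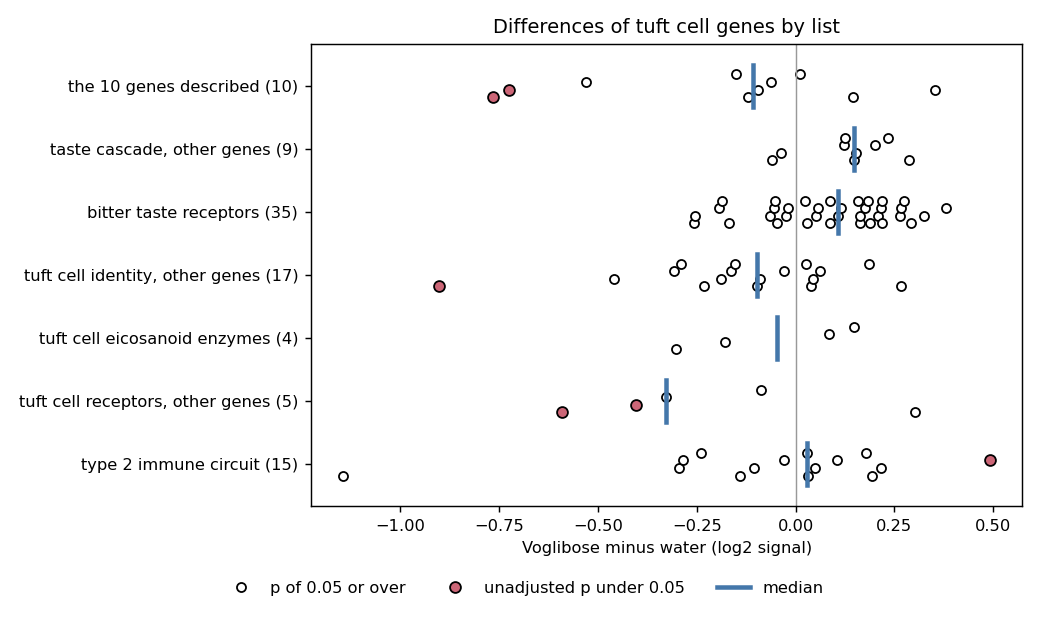
Difference between group means (voglibose minus water, log2 signal, horizontal axis) of each measured gene in the list of 10 and in 6 related lists, with the number of genes in brackets, a blue bar at each median and red points for an unadjusted p under 0.05 in limma. Gnat3 and Trpm5 are the 2 red points of the top row, while the other taste cascade genes lie around a median of 0.15.

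Sucnr1, the receptor through which tuft cells sense succinate, varied more within the groups than any other gene of the set. Its log2 signal was 5.96, 6.75, 5.37 and 4.81 in water mice and 5.04, 5.68, 5.53 and 4.52 in voglibose mice. The ranges overlapped, with 3 of the 4 voglibose mice inside the water range, water mouse 2 highest and voglibose mouse 4 lowest. The difference of -0.53 ± 0.38 (SE, 95% interval -1.37 to 0.31) had an unadjusted p of 0.191 (limma). It depended on which mice were counted. Leaving out water mouse 2 gave -0.19, and leaving out water mouse 4 gave -0.83 with an unadjusted p of 0.0364. With both mice that lacked the Fabp6 signal left out it was -1.0 ± 0.35 (SE), with an unadjusted p of 0.0192 and an adjusted p of 0.920. In that fit of 6 mice, 5.15% of all probe sets had an unadjusted p under 0.05.

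Sucnr1 is also the only one of the 10 genes whose annotated promoter window held the full octamer, and Avil the only other one with its first 7 letters. RefSeq windows were found for 8 of the 10 genes (not Pou2f3 and Il25), with 2 for Dclk1, and the 9 windows were searched on both strands. Over all 32851 windows of the same 300 bases, 1.74% held ATGCAAAT or its reverse complement ATTTGCAT, and 4.63% held ATGCAAA or TTTGCAT, which lie inside the longer motif. The match in Sucnr1 begins 48 bases before the start. Avil has 2 matches to the shorter motif, and the one farther from the start begins 115 bases before it. Capitals mark the matches, which describe the letters and not a bound site.
Sucnr1 promoter, chr3:60081619-60081918, plus strand: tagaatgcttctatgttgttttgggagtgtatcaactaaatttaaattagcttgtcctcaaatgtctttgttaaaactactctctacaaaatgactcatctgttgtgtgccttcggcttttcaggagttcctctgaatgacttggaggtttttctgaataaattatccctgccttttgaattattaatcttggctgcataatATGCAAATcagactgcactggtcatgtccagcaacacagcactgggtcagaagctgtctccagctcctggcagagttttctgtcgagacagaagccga
Avil promoter, chr10:127000459-127000758, plus strand: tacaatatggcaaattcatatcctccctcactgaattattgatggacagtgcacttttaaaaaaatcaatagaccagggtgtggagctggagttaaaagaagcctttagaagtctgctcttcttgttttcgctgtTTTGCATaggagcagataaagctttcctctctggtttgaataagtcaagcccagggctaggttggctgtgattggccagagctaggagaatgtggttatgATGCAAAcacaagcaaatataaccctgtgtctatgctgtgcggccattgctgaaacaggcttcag

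The lineage regulators showed no difference beyond their spread. Pou2f3 encodes the transcription factor without which tuft cells do not form in the mouse. It read 4.25, 5.39, 4.45 and 4.13 in water mice and 4.14, 4.61, 4.84 and 4.15 in voglibose mice, so the voglibose values fell inside the water range. The difference was -0.12 ± 0.27 (SE, 95% interval -0.72 to 0.48), and without water mouse 2 it turned to 0.16. Without the mice that lacked the Fabp6 signal it was -0.32 ± 0.31 (SE). Gfi1b, a zinc finger repressor found in tuft cells and in red cell and platelet precursors, had 7.32, 6.56, 6.84 and 5.91 in water mice and 6.80, 7.25, 6.90 and 7.09 in voglibose mice. The spread was wider in water mice (SD 0.59) than in voglibose mice (SD 0.20), with water mouse 4 lowest. The difference of 0.35 ± 0.26 (SE, unadjusted p = 0.200) was 0.57 without water mouse 1, with an unadjusted p of 0.0315, and only 0.10 when water mouse 4 was left out. It was 0.02 ± 0.22 without the 2 mice that lacked the Fabp6 signal. Gp9, a platelet gene of the marker list for red cells and platelets, had a higher mean in voglibose mice as well (0.44 ± 0.20, SE, unadjusted p = 0.0467, 0.28 without water mouse 2). Its part in the Gfi1b values was not tested.

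Dclk1, a microtubule-associated kinase and the most used tuft cell marker in the mouse gut, is also expressed in neurons. It gave 6.02, 7.00, 5.84 and 5.44 in water mice and 5.93, 6.57, 6.38 and 6.0 in voglibose mice. The 4 voglibose mice lay between the extremes of the water group, set by water mice 2 and 4. The means of 6.08 ± 0.66 and 6.22 ± 0.31 (SD, n = 4) differed by 0.15 ± 0.29 (SE, 95% interval -0.50 to 0.79). This sign rested on single mice, which gave 0.45 when water mouse 2 was left out and -0.07 when water mouse 4 was, and without both mice that lacked the Fabp6 signal it was -0.18 ± 0.29 (SE). Avil encodes advillin, an actin-binding protein of tuft cell microvilli and of sensory neurons, and Sh2d6 an SH2 domain adaptor enriched in tuft cells. Avil ranged from 3.65 to 4.31 and Sh2d6 from 3.13 to 3.70 over the 8 mice. Their differences were -0.10 ± 0.17 and 0.01 ± 0.16 (SE), and both genes lay below the lower quartile of the array, at percentiles 21.0 and 7.8 of mean signal.

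Il25, the signal from tuft cells to innate lymphoid cells, was equally dim, from 3.5 to 3.99 in water mice and from 3.53 to 4.07 in voglibose mice. The difference was -0.06 ± 0.17 (SE, 95% interval -0.44 to 0.32), and -0.04 without the 2 mice that lacked the Fabp6 signal. At such signals a change in Il25 could go undetected on these arrays.

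**Figure D3:**
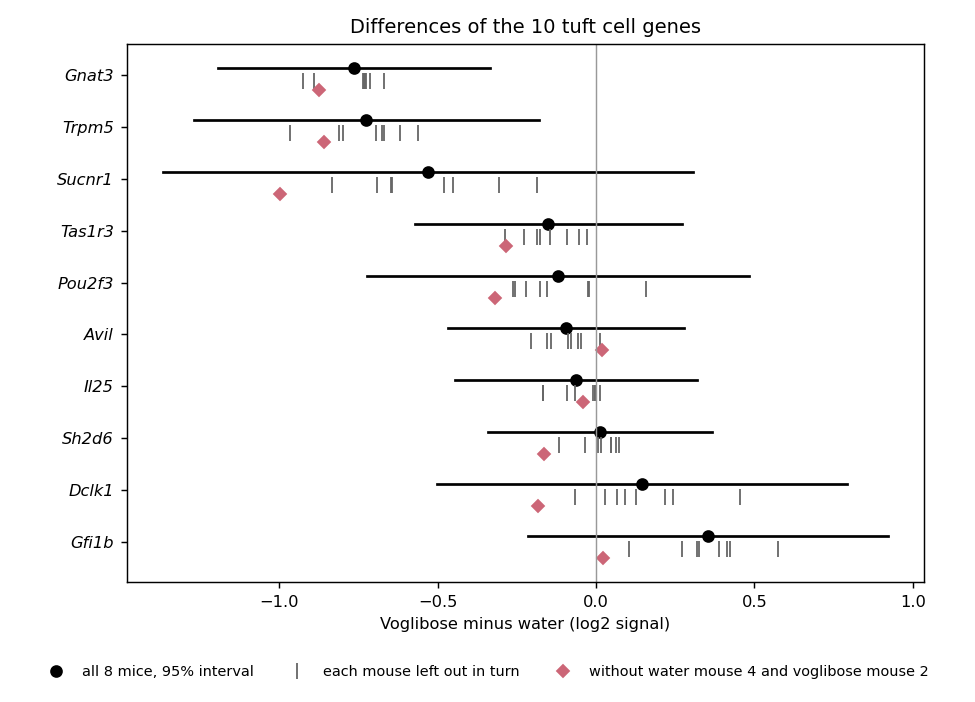
Differences between group means (voglibose minus water, log2 signal, horizontal axis) of the 10 genes, with limma 95% intervals over all 8 mice (black), the values with each mouse left out in turn (grey ticks) and those without water mouse 4 and voglibose mouse 2 (red diamonds). Only the intervals of Gnat3 and Trpm5 stay below 0, and Sucnr1 moves from -0.53 to -1.0 in the fit of 6 mice.

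An unadjusted p under 0.05 was met by 7.52% of all probe sets. In the wider tuft cell lists it was met by 0 of 9 other taste cascade genes and 1 of 17 identity genes. It was also met by 0 of 4 eicosanoid enzymes and 2 of 5 receptors. Of 17 measured identity genes beyond the 10, 11 had lower and 6 higher means in voglibose mice, with a median difference of -0.10, and 1 had an unadjusted p under 0.05. It was Rgs13, a brake on G protein signalling that is strong in tuft cells but also made by B cells and mast cells. Rgs13 read 9.27, 10.01, 8.26 and 8.71 in water mice and 7.23, 8.69, 8.77 and 7.95 in voglibose mice. Voglibose mice 2 and 3 lay above water mouse 3, and the ranges overlapped. The difference was -0.90 ± 0.40 (SE, unadjusted p = 0.0464), or 1.87-fold. It was -0.59 both without water mouse 2 and without voglibose mouse 1, with unadjusted p of 0.139 and 0.151. The means of the B cell markers were highest in water mouse 1 and voglibose mouse 3 (8.19 and 8.02, against 5.04 to 6.23 in the other mice), and their part in Rgs13 was not tested. Irag2, an endoplasmic reticulum protein of tuft cells and lymphocytes, differed by -0.15 ± 0.33 (SE), and Pou2af2, a coactivator of POU2F3, by 0.19 ± 0.30. Among the eicosanoid enzymes, which in tuft cells make prostaglandin D2 and leukotrienes, 2 of 4 measured genes were higher and 2 lower. The smallest p was that of the lipoxygenase Alox5, with a difference of -0.30 ± 0.17 (SE, unadjusted p = 0.110).

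Of 5 measured receptor genes beyond the 10, 2 had groups that did not overlap, both lower in voglibose mice, as were 2.53% of all probe sets. Among the other receptors, Ffar3 had a higher mean in voglibose mice (0.30 ± 0.22, SE). Il17rb (-0.33 ± 0.17) and Il4ra (-0.09 ± 0.16) had lower ones. Vmn2r26 is a vomeronasal receptor gene with which mouse tuft cells sense a bacterial metabolite. Its log2 signal was 3.98, 4.34, 3.74 and 4.21 in water mice and 3.68, 3.25, 3.34 and 3.64 in voglibose mice. All signals lay near or under the lower quartile of the arrays. The difference of -0.59 ± 0.17 (SE, unadjusted p = 0.00594, adjusted p = 0.652, limma) kept an unadjusted p under 0.05 with each mouse left out in turn, at -0.70 to -0.50. Il13ra1, a subunit of the receptor through which IL-13 drives tuft and goblet cell differentiation, is widely expressed in the gut wall. It read 14.63, 14.67, 14.58 and 15.15 in water mice and 14.45, 14.31, 14.33 and 14.32 in voglibose mice. The difference was -0.41 ± 0.16 (SE, unadjusted p = 0.0253, limma) and -0.27 without water mouse 4 (unadjusted p = 0.0735). The unadjusted p stayed under 0.05 in 5 of the 8 fits with a mouse left out. Without the 2 mice that lacked the Fabp6 signal the difference was -0.26 ± 0.16 (SE, unadjusted p = 0.127, limma).

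The type 2 immune circuit, in which IL-25 from tuft cells leads lymphoid cells to make IL-13, had 8 higher and 7 lower of 15 measured genes. Il13 was the only one with an unadjusted p under 0.05 and was higher in voglibose mice, as were 3.08% of all probe sets at that threshold. It read 3.41, 3.89, 3.27 and 3.60 in water mice and 4.23, 3.64, 3.87 and 4.40 in voglibose mice. Water mouse 2 lay above voglibose mice 2 and 3. Il13 was dim, at percentile 18.1 of mean signal, and every Il13 signal lay below the median of its array. All but those of voglibose mice 1 and 4 lay below the lower quartile of the arrays (4.05 to 4.18). Background can make up much of a signal there. The difference was 0.49 ± 0.20 (SE, unadjusted p = 0.0319, adjusted p = 0.658, limma), and the unadjusted p stayed under 0.05 in 4 of the 8 fits with a mouse left out. Retnlb, a goblet cell product that IL-13 induces, stood at 7.80 in water mouse 2 and between 3.03 and 3.45 in the other 7 mice. Its difference of -1.15 ± 0.85 (SE) became -0.01 without that mouse.

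In every one of the 10 genes but Gnat3 and Trpm5, the difference between means was smaller than the SD of the water group, and several genes varied together. Water mouse 2 had the highest signal of the 8 mice in 4 of the 10 genes (Gnat3, Dclk1, Pou2f3 and Sucnr1), and in 15.2% of all probe sets. It was also highest in 5 of the 17 identity genes, among them Rgs13, and, named after their values were seen, Bmx (5.96, others 4.36 to 4.89), Sh2d7 and Siglecf, which is an eosinophil marker as well. Water mouse 4 was lowest in 4 of the 10 genes and in 14.2% of all probe sets, but highest in Trpm5 (6.77) and Avil (4.31). Water mice 2 and 4 are the mice with the highest and nearly the lowest distal marker means (14.62 and 9.28), and with the highest and lowest smooth muscle means (14.30 and 11.03). They also had the highest and lowest means of the epithelium markers (15.16 and 14.64) and of the goblet cell markers (15.84 and 14.99). The enterocyte mean was instead lowest in water mouse 2 (17.87). In a fit with the difference between the distal and proximal marker means as a covariate, the differences between the groups were -0.67 for Gnat3, -0.81 for Trpm5, -0.40 for Sucnr1, 0.27 for Dclk1 and 0.0083 for Pou2f3. Gnat3 and Trpm5 kept an unadjusted p under 0.05 in it (limma), a threshold met there by 8.87% of all probe sets. This fit is not a test of region as a cause. The part of muscle, goblet cell or enterocyte content was not tested either.

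After each group's mean was subtracted, Dclk1 correlated at r = 0.92 with the mean of the other 9 genes over the 8 mice, Sucnr1 at 0.89, Sh2d6 at 0.78 and Pou2f3 at 0.71. Water mice 2 and 4 are those in which the mean of the 10 genes deviated most, and without them the values were 0.83, 0.67, 0.93 and 0.34. The Sh2d6 values deviated most in voglibose mouse 2, which both counts include. Over 8 mice Tas1r3 had 0.47, Gnat3 0.28, Gfi1b 0.26, Trpm5 0.12, Il25 -0.11 and Avil -0.80. Without the 2 mice these were -0.20, -0.74, 0.40, 0.60, 0.13 and -0.31, so the values for Gnat3 and Trpm5 rested on which mice were counted. Of the 19495 other named genes, Zfp709, Olfr69, Pdgfc, Mageb16 and Gpr152 had the profiles most like the mean of the 10, with r from 0.95 to 0.98 over 8 mice and from 0.85 to 0.96 over the remaining 6. The tuft cell gene ranked highest in that order was Sh2d7, an SH2 domain adaptor, at place 14 with r = 0.93, and the next was the leukotriene C4 synthase Ltc4s at place 225.

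**Figure D4:**
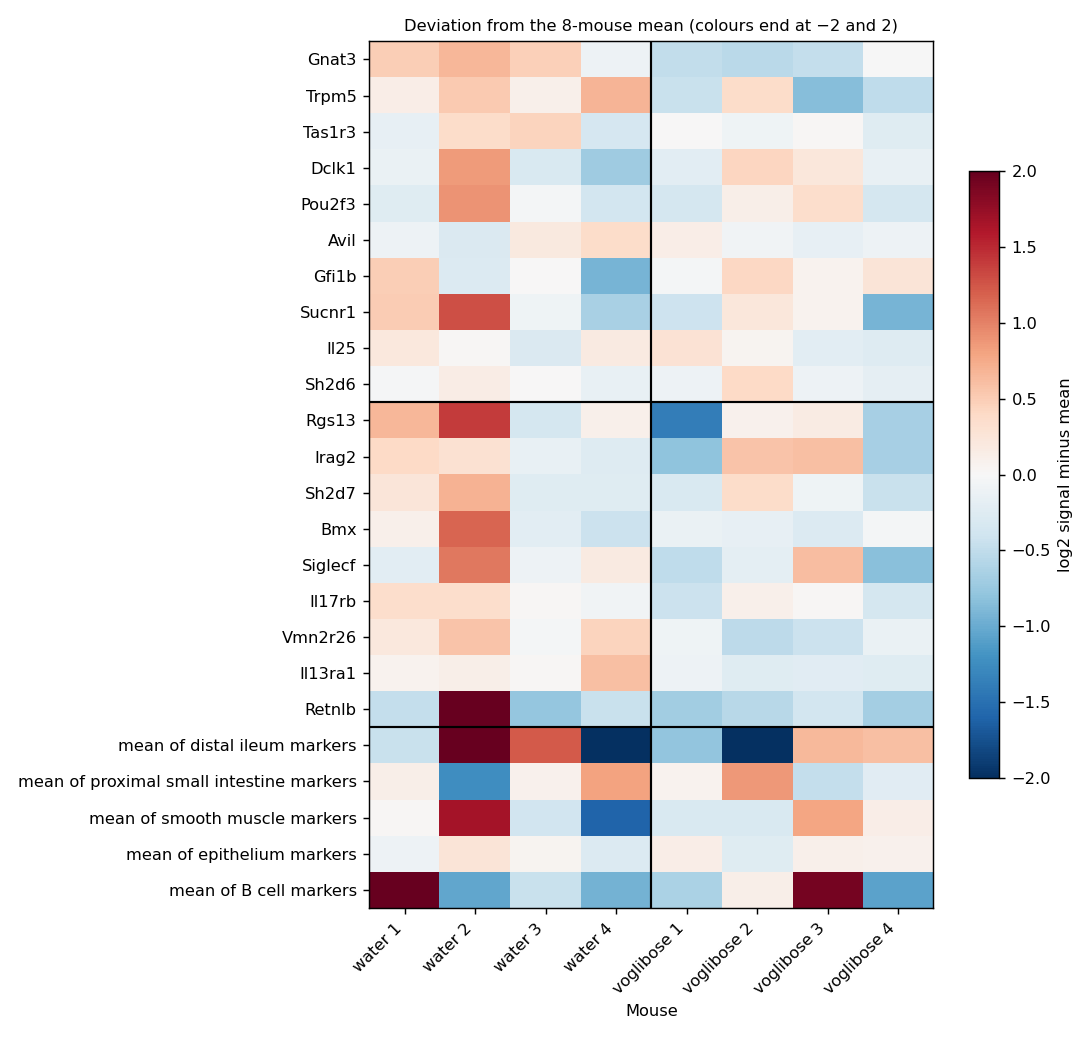
Deviation of each log2 signal from its mean over the 8 mice (colour, from -2 to 2), for the 10 genes (top), other tuft cell and type 2 genes (middle) and the means of 5 marker lists (bottom), with 1 column per mouse. Water mouse 2 is high in Dclk1, Pou2f3, Sucnr1, Rgs13, Bmx, Siglecf and Retnlb together with the distal and smooth muscle markers, while Gnat3 and Vmn2r26 are low across 3 or more voglibose mice.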

How the data were processed

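Total RNA (250 ng per mouse) was hybridised to Affymetrix arrays, 1 per mouse. The authors deposited 1 log2 signal for each probe set and mouse. RMA and the Transcriptome Analysis Console were used, per the submitters' processing notes, and the log2 scale was read from the values. The genome build is not given in the sources used here. All 22206 probe sets were fitted with limma 3.58.1 in R 4.3.3 (lmFit, eBayes), 2-sided, with Benjamini-Hochberg adjustment over all of them and no filter. Symbols came from the platform annotation and were updated by gene identifier to RefSeq names of GRCm38.p6. Irag2 and Pou2af2 were found under older symbols. The 10 genes, the 23 further lists and the alternatives were chosen with earlier results of these data known. Named were the 10 genes, fixed genes of some lists, list members at an unadjusted p under 0.05 (up to 4) or else the smallest p, and the 5 genes most like the mean of the 10. Replicate numbers only name mice, and no batch is labelled, so none could be fitted. The limma p-values set each difference against the spread between mice within the groups. That spread was moderated with the variances of all probe sets, and it includes any batch that was not labelled. Alternatives were other normalizations, a filter on dim probe sets, other variance models, the replicate number as a block, regional or epithelial markers as covariates, an exact permutation test and leaving out mice. The number of arrays limits the precision: the median SE was 0.18. On simulated data over 22206 probe sets, 11.2% of 1.5-fold, 59.0% of 2-fold and 91.8% of 3-fold changes were recovered. Recovery meant an adjusted p under 0.05. The simulated noise was independent between probe sets, and changes were placed at random over bright and dim ones. The shares are therefore not those to be found among these 10 genes, several of them dim, in mice whose regional profiles differ.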

Additional observations from a re-analysis of the deposited data

Results flagged for a closer look

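In groups of 4 mice, a value was singled out where its gap to the nearest other mouse exceeded Dixon's 95% limit, which chance passes in about 1 of 20 groups. This occurred 12 times in 84 groups of 42 genes. Among the 10 tuft cell genes, Gnat3 in voglibose mouse 4 was at 4.21 (others 3.68 to 3.74), and Sh2d6 in voglibose mouse 2 at 3.70 (others 3.13 to 3.21). In related genes, Gnb3 was low in water mouse 3 (4.95), Gng13 low in voglibose mouse 3 (3.81), and Il13ra1 high in water mouse 4 (15.15) and voglibose mouse 1 (14.45). Retnlb in water mouse 2, at 7.80, had the next mouse at 3.36. Among markers of other cells, Mgam and Lct were low in water mouse 2 (18.01 and 12.39), Cdh1 and Mgam high in voglibose mouse 1 (16.74 and 18.58), and Cck high in voglibose mouse 2 (8.92).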

How the results depend on the processing

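In each alternative fit, limma called 0 probe sets at an adjusted p under 0.05, while the number at an unadjusted p under 0.05 was 969 without voglibose mouse 1 and up to 1970 with regional markers as a covariate, against 1671. The 2 genes at an unadjusted p under 0.05, Gnat3 and Trpm5, met it in every limma fit that held them, and 0 genes met it by the exact permutation test. With single mice left out 2 to 3 of the 10 genes met it. With probe sets above the median signal alone, 3 of the 10 genes remained and 1, Trpm5, met it, with a median difference of 0.145. With the replicate number as a block the count was 2 again, and mice sharing a number did not deviate together (r from -0.32 to 0.02). Genes with separated groups numbered 0 to 1 when single mice were left out (6.04% to 8.64% of all probe sets), and 3 (Gnat3, Trpm5 and Sh2d6) without water mouse 4 and voglibose mouse 2, where 10.5% of all probe sets were separated. In Trpm5 the overlap had come from voglibose mouse 2, and in Gnat3 it lay between water mouse 4 and voglibose mouse 4. The median difference ran from -0.18 to -0.05 with single mice left out and was -0.23 without both mice, against -0.11. Directions turned for genes near 0. Sh2d6 was -0.0066 after a further quantile normalization, -0.0023 with array weights, -0.12 to 0.073 with single mice left out and -0.16 without both mice. With single mice left out, Dclk1 ran from -0.067 to 0.45, Avil from -0.21 to 0.014, Pou2f3 from -0.26 to 0.16 and Il25 from -0.17 to 0.012. Dclk1 was -0.18 and Avil 0.02 without both mice, and Pou2f3 was 0.0083 with the regional covariate. The cause was not tested. Leaving out mice for Rgs13, Vmn2r26, Il13ra1, Il13, Retnlb, Mrc1, Il5ra and Gp9 was added after seeing the data.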

Other observations

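Among markers of other cell types, Gp9, Mrc1 and Il5ra had an unadjusted p under 0.05, a threshold that 7.52% of all probe sets met. Beside Gp9, the macrophage mannose receptor Mrc1 was lower in voglibose mice (-0.42 ± 0.17, SE, unadjusted p = 0.0309, limma; -0.33 without water mouse 2), and the IL-5 receptor gene Il5ra of the eosinophil list was higher (0.48 ± 0.17, unadjusted p = 0.0175). Of the 5 eosinophil markers, 2 had a higher mean and 3 a lower one (Ccr3 -0.56, Siglecf -0.46 and Prg2 -0.37), with a median difference of -0.37. With single mice left out, the unadjusted p stayed under 0.05 in 3 of 8 fits for Mrc1, 6 for Il5ra and 2 for Gp9. In the other lists the genes with the smallest p (Cdh1, Mgam, Fcgbp, Lyz1, Cck, Axin2, Ccl9, Cd8a, Ms4a1, Cpa3, Actg2, Snap25, Fgf15 and Lct) had unadjusted p from 0.0528 to 0.672 in limma. The mean of the enteroendocrine markers, cells that also use taste receptors, was 7.98 in water and 8.02 in voglibose mice.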
